A study of Mus musculus with 18 samples.

Results

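Small nucleolar RNA host genes are noncoding genes that carry small nucleolar RNAs (snoRNAs) inside their transcripts. The 10 genes described here, *Gas5*, *Snhg1*, *Snhg3*, *Snhg5*, *Snhg6*, *Snhg8*, *Snhg12*, *Snhg15*, *Snhg17* and *Zfas1*, were taken by name from the 45706 genes whose reads were counted in 18 mouse kidneys. The rule used names and no threshold on a measured value, but the set was chosen with earlier results of these data known. Of the 10 genes, 9 had a row in the count files. *Snhg1* had none under its Ensembl identifier (ENSMUSG00000108414) and its host transcript was not analysed here. The filter on low counts left 8 of the 10 to test, since *Snhg3* had 1 to 8 counts per kidney. In these 8 genes no difference passed an adjusted p of 0.05 between knockout (KO) and control kidneys, while 1.65% of all tested genes did so in the *Myc* cohort and 0% in the *Cxcl12* cohort. The log2 fold change was below 0 for 7 of the 8 in kidneys lacking *Myc* (50.1% of all tested genes) and above 0 for 7 of the 8 in kidneys lacking *Cxcl12* (50.2%).

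The kidneys were whole kidneys of young adult male C57BL/6 mice, collected 12 hours after bilateral ischemia of 22.5 minutes. All 4 groups were injured, and no uninjured kidney was sequenced in these 18 samples. Mice of the *Cxcl12* cohort carried the floxed *Cxcl12* allele (Cxcl12 fl/fl) with the Pax8rtTA transgene, and the 5 KO mice also carried TetOCre, which the 3 controls lacked. Mice of the *Myc* cohort carried the floxed *Myc* allele (Myc fl/fl) with Pax8rtTA, and again the 5 KO mice carried TetOCre and the 5 controls did not. KO and control mice all received doxycycline, followed by a washout. The *Pax8* promoter limits the excision to renal tubular epithelium, so every kidney also contained glomerular, vascular, stromal and immune cells with both genes intact. In RNA of a whole kidney, fewer cells of one type and less RNA per cell cannot be told apart.

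As background, most snoRNAs of mammals are cut out of introns. After the host transcript is spliced, the intron is trimmed and the snoRNA is kept as a stable particle with its core proteins. Box C/D snoRNAs guide 2′-O-methylation and box H/ACA snoRNAs guide pseudouridylation of ribosomal RNA. The spliced RNA of a noncoding host has little or no coding capacity. Several host RNAs begin with a terminal oligopyrimidine tract, as ribosomal protein mRNAs do, and are removed by nonsense-mediated decay when they are translated. *Myc* encodes a transcription factor that binds the E-box CACGTG as a dimer with MAX, and ribosome biogenesis genes are among its best known targets. *Cxcl12* encodes a chemokine that signals through CXCR4.

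RefSeq promoter entries (GRCm38.p6, 250 bases before the annotated start and 50 bases from it on) were present for 9 of the 10 genes. The E-box CACGTG, which reads the same on both strands, was found in 1 of these 9, *Snhg15*, and in 7.15% of all 32851 promoter entries. The *Snhg15* promoter is printed whole because it holds this E-box, in capitals, with its first base at position 12 counted from the annotated start as position 1.
Snhg15 promoter, chr11:6528711-6529010, minus strand: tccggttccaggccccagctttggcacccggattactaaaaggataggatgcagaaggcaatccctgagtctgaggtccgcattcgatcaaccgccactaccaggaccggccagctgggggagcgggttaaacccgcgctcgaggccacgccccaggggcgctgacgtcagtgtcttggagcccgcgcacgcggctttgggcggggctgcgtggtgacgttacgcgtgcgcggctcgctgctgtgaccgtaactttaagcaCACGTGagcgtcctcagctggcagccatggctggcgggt

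A second feature searched was a pyrimidine run at the start, written as a C followed by at least 4 bases that are each C or T, on the strand of the gene. Such a run began exactly at the annotated start in 2 of the 9 genes, *Gas5* (1 of its 2 entries) and *Snhg8*, and in 2.51% of all promoter entries. Within 10 bases of the start, the start itself included, a run began in 5 of the 9 genes (these 2 with *Snhg12*, *Snhg3* and *Snhg5*), and in 30.7% of all entries. The 50 bases around the start are shown for the 2 genes with the run at the start and for *Snhg12*, with the run in capitals and 20 bases before the annotated start. In *Gas5* and *Snhg12* the run also takes in bases just before that start.
Gas5, chr1:161035146-161035195, plus strand: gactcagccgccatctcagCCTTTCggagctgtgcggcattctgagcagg
Snhg8, chr3:123508307-123508356, minus strand: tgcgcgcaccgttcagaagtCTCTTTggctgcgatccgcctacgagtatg
Snhg12, chr4:132308658-132308707, plus strand: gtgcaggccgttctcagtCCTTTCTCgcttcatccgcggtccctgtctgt

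Gene counts ranged from 12918220 to 29749500 per kidney. The deleted genes were checked first. *Myc* was at 31.0 ± 3.94 CPM (counts scaled to the size of the library, mean ± SD, n = 5) in the KO and 94.8 ± 14.5 CPM (n = 5) in the control mice of its cohort (log2 fold change -1.61, SE 0.12, adjusted p 8.82e-05), and no KO kidney reached the lowest control. *Cxcl12* was at 32.2 ± 6.07 CPM (n = 5) in Cxcl12 KO and 53.4 ± 7.92 (n = 3) in Cxcl12 control kidneys, which did not overlap (-0.73, SE 0.15, adjusted p 0.0942). The 10 markers of proximal tubule, the main cell type of kidney cortex, summed to 9353 to 12933 CPM in Cxcl12 KO and 10176 to 15404 in Cxcl12 control kidneys. In Myc KO and Myc control kidneys they summed to 8491 to 14007 and 9155 to 13984 CPM. All 10 had a fold change below 0 in Cxcl12 KO kidneys (median log2 fold change -0.27), and 4 of the 10 in Myc KO kidneys (median 0.087). The 6 lymphocyte markers summed to 0.682 to 1.56 CPM. The 7 neutrophil markers summed to 34.9 to 165 CPM in Cxcl12 KO against 21.6 to 30.3 in Cxcl12 control kidneys, and to 172 to 333 CPM in Myc KO against 52.6 to 294 in Myc control kidneys. The 4 markers of tubular injury (*Havcr1*, *Lcn2*, *Krt20* and *Clu*) summed to 4521 to 5912 CPM in Cxcl12 KO against 2625 to 3795 in Cxcl12 control kidneys, which did not overlap, and to 5380 to 6438 CPM in Myc KO against 4570 to 6396 in Myc control kidneys. Of these 4 genes *Havcr1* was lower in Myc KO kidneys, at 203 ± 79.3 CPM against 506 ± 298 in Myc controls (log2 fold change -1.32, SE 0.43, adjusted p 0.120). In the same comparison *Krt20* was at -0.019, *Clu* at 0.26 and *Lcn2* at 0.39. None of the markers in these sums was at 0 in all kidneys. The 6 lymphocyte markers had too few counts to be tested, and none of the others passed an adjusted p of 0.05 in either cohort. The part of these cell types and of injury in the results below was not tested. In 6 kidneys fewer than 5% of reads were unmapped (Cxcl12 KO 1 and 2, Myc KO 3 and 5, Myc control 1 and 3), and in the *Cxcl12* cohort these are KO kidneys only.

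Levels differed far more between the host genes than between groups. On the scale of CPM per kb of exon sequence, the median over 18 kidneys was 32.3 for *Gas5*, which hosts a series of box C/D snoRNAs, and 3.598 for *Snhg17*, which hosts box H/ACA snoRNAs. The order in between was *Snhg6* at 19.3, *Snhg8* at 16.5, *Zfas1* at 9.35, *Snhg5* at 8.18, *Snhg12* at 7.23 and *Snhg15* at 6.09 CPM per kb. *Gas5* was above *Snhg6*, *Snhg8* above *Zfas1*, and *Snhg15* above *Snhg17* in 18 of 18 kidneys. Other neighbours in the order overlapped: *Zfas1* was above *Snhg5* in 14 kidneys, *Snhg5* above *Snhg12* in 15, and *Snhg12* above *Snhg15* in 14. Within one gene the highest kidney stood 1.55 times above the lowest in *Gas5* and 2.47 times in *Snhg12*, the widest range among the 8. Exon length was the union over all annotated transcripts, which includes retained introns (3760 of 4118 bases in *Gas5*), and levels per length depend on it.

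**Figure D1:**
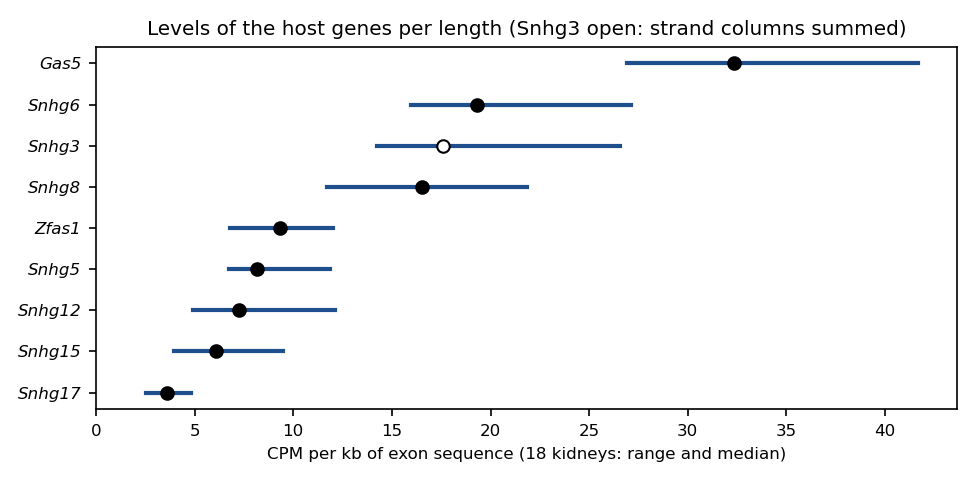
Levels per exon length of the 9 host genes with a row in the count files, in CPM per kb, with the median (circle) and range (line) over 18 kidneys. *Gas5* has the highest median, 32.3, and *Snhg17* is the lowest at 3.598. *Snhg3*, drawn open, is taken from the strand columns.

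The box C/D hosts come first, with the *Myc* cohort. *Gas5* (growth arrest-specific 5, chromosome 1, plus strand) accumulates when translation is blocked and is also known as a decoy for the glucocorticoid receptor. Its level was 101, 103, 106, 116 and 120 CPM in the Myc KO kidneys and 108, 121, 125, 139 and 143 CPM in the Myc controls. The 5 KO kidneys all lay below the control median, 3 of them below every control, and the groups overlapped through 1 control, Myc control 4. The fitted log2 fold change was -0.22 (SE 0.091, 95% interval -0.42 to -0.021, adjusted p 0.194).

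*Zfas1* lies antisense to the 5′ end of *Znfx1* on chromosome 2 and hosts snoRNAs of the Snord12 family. Its level was 19.9, 20.6, 25.7, 26.0 and 28.2 CPM in Myc KO kidneys and 25.3, 25.5, 28.8, 34.3 and 35.2 CPM in Myc controls. Again every KO kidney was under the control median and the ranges overlapped. The log2 fold change was -0.31 (SE 0.13, adjusted p 0.196).

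*Snhg5*, the host of Snord50a and Snord50b, was at 12.1, 12.5, 12.96, 14.8 and 15.6 CPM in Myc KO and 11.6, 12.6, 17.1, 17.7 and 20.5 CPM in Myc control kidneys. The KO values lay wholly inside the control range, on its lower side (-0.22, SE 0.15, adjusted p 0.415). *Snhg6*, the host of Snord87, was at 19.0 to 23.6 CPM in Myc KO and 18.3 to 28.3 CPM in Myc control kidneys, with a log2 fold change of -0.17 (SE 0.12, adjusted p 0.442). For both genes the spread among controls was wider than the difference of the means.

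Among the hosts of box H/ACA snoRNAs, *Snhg15* had the lowest fold change of the 8 genes. This host of Snora9 on chromosome 11, the gene with the E-box, was at 5.39, 6.33, 6.62, 6.92 and 9.96 CPM in Myc KO kidneys. In Myc controls it was at 7.75, 8.24, 8.65, 10.9 and 12.9 CPM. Of the KO kidneys 4 lay below every control and Myc KO 1 lay among the controls. The KO level was 0.723 times the control level (log2 fold change -0.47, SE 0.18, 95% interval -0.87 to -0.069, p 0.0250 and adjusted p 0.174 by edgeR). A part of the E-box in this level was not tested.

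*Snhg17* gave the tightest KO group, at 20.4, 21.2, 22.1, 22.5 and 23.3 CPM, against 18.03, 27.4, 29.1, 29.2 and 29.5 CPM in Myc controls. The KO kidneys lay below 4 controls and above the fifth, Myc control 4. With all kidneys the log2 fold change was -0.28 (SE 0.12, adjusted p 0.214). Without Myc control 4 it was -0.39 with an adjusted p of 0.0417, the only setting of those tried under which any of the 8 genes passed.

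The remaining hosts with H/ACA snoRNAs were *Snhg12* and *Snhg8*. *Snhg12*, which holds Snora16a, Snora44 and Snora61 together with the box C/D RNA Snord99, was at 15.1, 15.2, 19.4, 22.3 and 29.1 CPM in Myc KO kidneys. In Myc controls it was at 14.6, 17.2, 18.3, 18.7 and 21.4 CPM. The highest and second highest kidney of the cohort were KO kidneys, and *Snhg12* was the only one of the 8 with a log2 fold change above 0 (0.16, SE 0.17, adjusted p 0.628). *Snhg8*, the host of Snora24, was at 9.98 to 15.2 CPM in KO and 10.8 to 17.1 CPM in control kidneys, and its log2 fold change was -0.092 (SE 0.15, adjusted p 0.754).

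**Figure D2:**
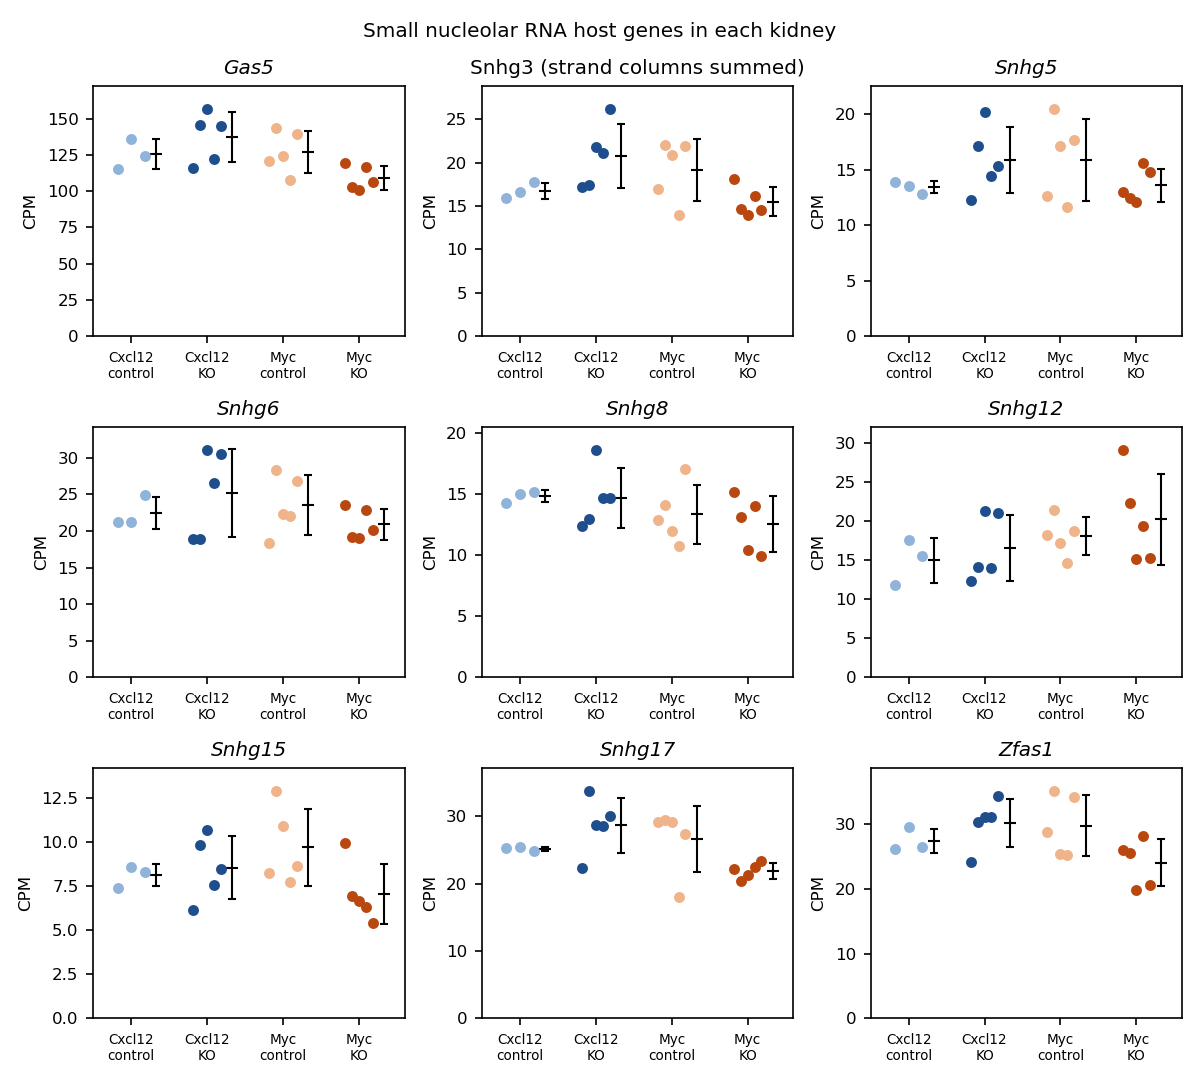
Level of each host gene in CPM (linear axis from 0) in every kidney of the 4 groups, with the group mean and SD in black. In the *Myc* cohort the KO points of *Gas5*, *Snhg17* and *Zfas1* sit below the control median, and at least 1 control kidney lies among or under them. *Snhg3* is drawn from the strand columns.

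In the *Cxcl12* cohort the KO values spread around or above a narrow control group. *Gas5* was at 116, 122, 145, 146 and 157 CPM in Cxcl12 KO kidneys and at 115, 124 and 136 CPM in Cxcl12 controls (log2 fold change 0.13, SE 0.11, adjusted p 0.658). *Snhg17* was at 22.4, 28.6, 28.7, 29.99 and 33.8 CPM in KO kidneys, against 24.8, 25.4 and 25.4 CPM in controls (0.18, SE 0.12, adjusted p 0.548). In *Snhg5*, *Snhg17* and *Zfas1* 4 of the 5 KO kidneys lay above every control, and the remaining one, Cxcl12 KO 1, lay below every control.

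*Snhg5* had the highest fold change of this cohort, at 0.23 (SE 0.15, adjusted p 0.539), with 12.3, 14.4, 15.3, 17.1 and 20.2 CPM in KO kidneys and 12.8, 13.6 and 13.9 CPM in controls. *Zfas1* was at 24.2, 30.4, 31.1, 31.2 and 34.5 CPM in KO kidneys and 26.2, 26.6 and 29.6 CPM in controls (0.13, SE 0.11, adjusted p 0.646). Both genes thus had 1 KO kidney under the controls and the others over them.

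The remaining hosts overlapped more. *Snhg6* was at 18.9 to 31.1 CPM in Cxcl12 KO kidneys and 21.2 to 24.96 CPM in controls (0.15, SE 0.18, adjusted p 0.744), and *Snhg15* at 6.16 to 10.6 and 7.40 to 8.60 CPM (0.066, SE 0.18, adjusted p 0.908). *Snhg8* was at 12.4 to 18.7 CPM in KO kidneys and 14.3 to 15.2 CPM in controls, and it alone had a log2 fold change below 0 (-0.027, SE 0.14, adjusted p 0.952). *Snhg12* was at 12.3 to 21.2 CPM in KO kidneys and 11.8 to 17.5 CPM in controls (0.13, SE 0.21, adjusted p 0.820). Its 95% interval ran from -0.32 to 0.58, the widest of the 8.

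Of the 8 tested genes, 0 passed an adjusted p of 0.05 in Myc KO kidneys, where 1.65% of 14936 genes did. DESeq2 and limma-voom also called 0 of the 8, against 7.63% and 1.44% of all genes. At an unadjusted p under 0.05 it was 4 of 8 (*Gas5*, *Snhg15*, *Snhg17* and *Zfas1*, all lower), against 11.2% of all genes that were lower at this level. The 8 genes had a median log2 fold change of -0.22, and all tested genes had one of -0.00083. Groups without overlap were found for 0 of the 8, against 3.92% of all genes with KO lower and 2.05% with KO higher.

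In Cxcl12 KO kidneys, edgeR called 0 of the 8 genes and 0% of all 15154 genes, with 0 of the 8 and 13% of all genes at an unadjusted p under 0.05. DESeq2 called 0 of the 8 and 2.34% of all genes, and limma-voom 0 of the 8 and 0% of all genes. The median log2 fold change was 0.13 for the 8 genes and 0.00083 for all genes. No host gene had groups without overlap, against 4.72% of all genes with KO lower and 4.96% with KO higher.

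The difference between the KO effects, *Myc* minus *Cxcl12*, was tested itself over all 18 kidneys. It was below 0 for 7 of the 8 genes, against 51% of all 15903 genes. No host gene passed an adjusted p of 0.05, against 0.0692% of all genes (11 genes), and DESeq2 and limma-voom also called 0 of the 8 against 1.97% and 0.0189%. At an unadjusted p under 0.05, 3 of the 8 were below 0 (*Gas5*, *Snhg17* and *Zfas1*), against 6.77% of all genes. The difference was -0.35 for *Gas5* (SE 0.14, adjusted p 0.345), -0.47 for *Snhg17* (SE 0.18, adjusted p 0.304) and -0.45 for *Zfas1* (SE 0.18, adjusted p 0.345). *Snhg15* had the most negative difference, -0.54, with a wider error (SE 0.27, adjusted p 0.471), and *Snhg12* the least, 0.018. Of the 8 genes 6 had a fold change above 0 in Cxcl12 KO together with one below 0 in Myc KO, as did 20.2% of the 14727 genes tested in both cohorts.

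**Figure D3:**
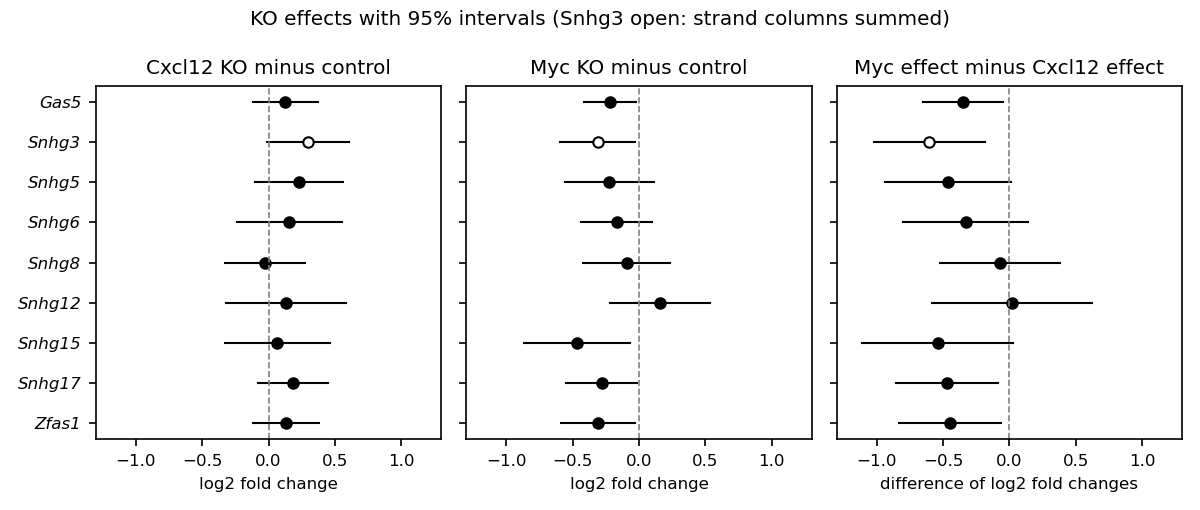
Log2 fold changes of each host gene with 95% intervals, for Cxcl12 KO against control (left), Myc KO against control (middle) and the difference of these effects (right). All intervals on the left cross 0, and in the middle those of *Gas5*, *Snhg15*, *Snhg17* and *Zfas1* do not, though no adjusted p was under 0.05. *Snhg3*, drawn open, comes from the strand columns.

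In some kidneys the host genes were high or low together, and in others they lay on both sides of the cohort mean. Their log2 CPM minus that mean ran from -0.16 to 0.63 in Myc KO 1 and from -0.32 to 0.31 in Cxcl12 KO 2. Cxcl12 KO 1 was the lowest of the 8 kidneys of its cohort for 6 of the 8 genes and Cxcl12 KO 3 the highest for 6. Averaged over the 8 genes, log2 CPM lay 0.29 below the cohort mean in the former (mean -0.29, range -0.42 to -0.18) and 0.30 above it in the latter. In the *Myc* cohort, Myc control 2 was the highest of 10 kidneys for 6 of the 8 genes (mean 0.36). Myc control 4 was below the cohort mean in all 8 and lowest in 3 of them (mean -0.20), and Myc KO 3 was below it in all 8 as well (mean -0.27).

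The kidney with the highest mean of the *Cxcl12* cohort, Cxcl12 KO 3, and the highest pair of the *Myc* cohort, Myc control 2 and Myc control 5, had 12968383, 14911369 and 16706450 gene counts and 5.78%, 6.00% and 6.14% unmapped reads. The lowest of the *Cxcl12* cohort, Cxcl12 KO 1, and the lowest pair of the *Myc* cohort, Myc KO 3 and Myc KO 5, had 23581858, 22437067 and 26405298 gene counts and 3.93%, 4.47% and 4.63% unmapped reads. Myc control 3, by contrast, had 29749500 gene counts and 4.24% unmapped reads with a mean of 0.096 above the cohort mean. Cxcl12 KO 2 and Myc control 1 had 26411079 and 25618879 gene counts with 4.06% and 3.69% unmapped reads. They lay near the cohort mean, at 0.041 and -0.0036. Cxcl12 control 1 and Myc control 4 had 17235048 and 16125726 gene counts with 5.28% and 5.46% unmapped reads. Both lay below the cohort mean, at -0.16 and -0.20. The part of depth in these levels was not tested.

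**Figure D4:**
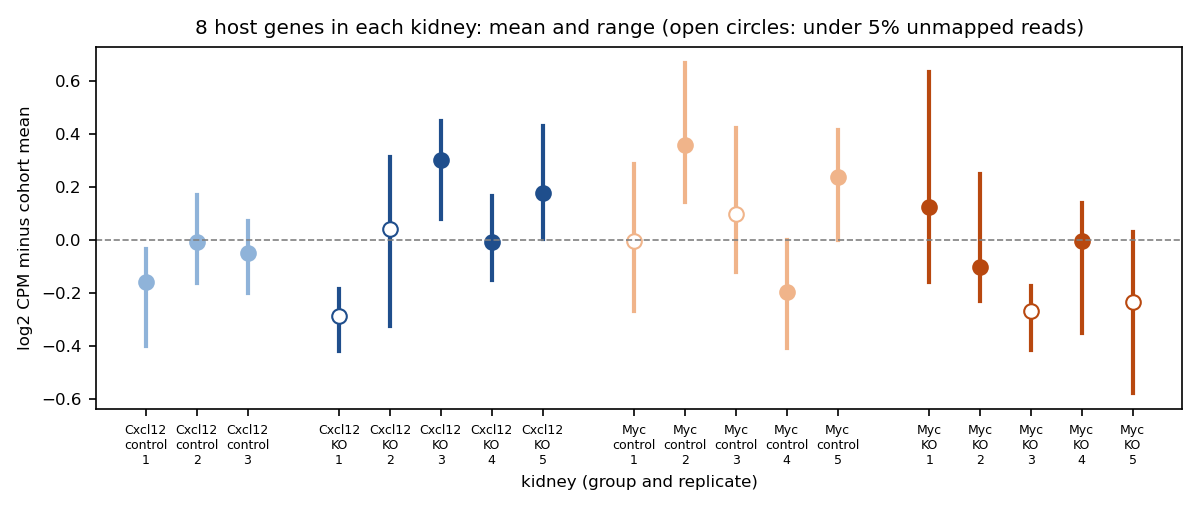
Mean (circle) and range (line) over 8 host genes of log2 CPM minus the mean of the gene over its cohort, for each kidney, with kidneys of under 5% unmapped reads drawn as open circles. Myc KO 3, Myc control 4, Cxcl12 KO 1 and Cxcl12 control 1 lie wholly below 0, and Cxcl12 KO 3, Cxcl12 KO 5 and Myc control 2 wholly above.

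Within the 6 *Myc* cohort kidneys with 5% or more unmapped reads (3 KO, 3 control), the log2 fold change was -0.20 for *Gas5*, -0.34 for *Snhg15*, -0.20 for *Snhg17* and -0.24 for *Zfas1*. Within the other 4 kidneys (2 KO, 2 control) it was -0.23, -0.66, -0.38 and -0.41 for the same genes. The sign was thus below 0 in both classes for these 4 genes, with adjusted p-values of 0.326 to 0.585 in these smaller sets. With the class as a term in the fit over all 10 kidneys, the log2 fold changes were -0.22, -0.48, -0.28 and -0.32, with adjusted p-values from 0.0710 (*Zfas1*) to 0.163 (*Snhg17*). *Snhg12* was at 0.37 in the first class and -0.22 in the second, and *Snhg8* at 0.021 and -0.27. In the *Cxcl12* cohort, the 3 KO kidneys with 5% or more unmapped reads against the 3 controls gave a log2 fold change above 0 for all 8 genes, from 0.092 in *Snhg8* to 0.38 in *Snhg6* (adjusted p 0.207 for the latter). Kidneys under 5% were KO kidneys only in that cohort, so no value within that class could be had.

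*Snhg3*, the host of Snora73a and Snora73b, showed how the counting shaped a host gene. In the column that ignores the strand it had 66 reads over the 18 kidneys. The columns that assign reads by strand held 6256 reads when summed, so 98.9% of them were missing from the first. The noncoding gene *Gm17300*, on the opposite strand, shares 705 bases of exon with *Snhg3*, and reads over 2 genes are set apart as ambiguous when strand is ignored. *Rcc1*, a protein-coding gene on the same strand, shares another 135 bases. The library did not keep the strand (each strand column held 51.8% to 52.8% of the gene counts), so reads of *Snhg3* and *Gm17300* cannot be told apart, and the values that follow are for both.

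From the strand columns, *Snhg3* was at 14.0, 14.6, 14.7, 16.1 and 18.1 CPM in Myc KO and 14.0, 16.9, 20.8, 21.9 and 22.0 CPM in Myc control kidneys. It was at 17.2, 17.4, 21.1, 21.8 and 26.2 CPM in Cxcl12 KO and 15.9, 16.6 and 17.7 CPM in Cxcl12 control kidneys. As in *Gas5*, Myc control 4 was the lowest of its group. The log2 fold change was -0.31 in Myc KO (SE 0.13, adjusted p 0.198), 0.30 in Cxcl12 KO (SE 0.14, adjusted p 0.399) and the difference was -0.60 (SE 0.20, p 0.00682, adjusted p 0.213). The other hosts gained few reads in this count: 7.98% of the reads of *Snhg6*, which shares 127 bases of exon with *Mcmdc2*, and 0.302% of those of *Zfas1*, which shares 82 bases with *Znfx1*, were regained, and none in the remaining 6.

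Genes that start within 1000 bases of a host gene, or overlap it, did not pass the test either. *Zbtb37*, a zinc finger gene that starts 427 bases from *Gas5* on the other strand, had a log2 fold change of 0.39 in Myc KO kidneys (SE 0.13, adjusted p 0.119), opposite in sign to *Gas5*. *Rcc1*, the nucleotide exchange factor of the GTPase Ran, was at -0.45 (SE 0.16, adjusted p 0.136). *Slc3a2*, the heavy chain of amino acid transporters, starts 106 bases from *Snhg1* and was at -0.23 (adjusted p 0.205). *Znfx1* was at 0.0013 (adjusted p 0.996) beside the -0.31 of *Zfas1*, and *Gm17300* was at -0.31 (adjusted p 0.606). *Mcmdc2* had too few counts to be tested.

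The snoRNAs themselves were not measured by these libraries in most cases. GENCODE places 36 snoRNA genes inside the spans of the 10 hosts, of which 33 lie wholly within annotated host exons. Reads were listed for 9 of the 36. All 25 that lay within exons of hosts with a row were at 0 reads in every kidney, as reads over both a snoRNA and its host are set apart as ambiguous. *Snord87* in *Snhg6*, outside the annotated exons, had 106 reads over 18 kidneys. The column that ignores strand held no reads for the other snoRNAs of counted hosts. The strand columns summed held 834 reads for *Snora73b* in *Snhg3*, which shares no exon base with its host, and 83 for *Snora73a*, which shares 159 bases. *Snora73b* lies within the span of *Gm17300* on the other strand, and reads of these genes cannot be told apart without the strand. *Snord87* is printed because it is the one snoRNA of a counted host with reads in the column tested here, with its C box (TGATGA) and its last D box (CTGA) in capitals.
Snord87, chr1:9942463-9942549, minus strand (GENCODE, GRCm38): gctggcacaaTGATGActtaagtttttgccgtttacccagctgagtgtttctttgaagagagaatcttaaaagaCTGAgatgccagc

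The 8 snoRNA genes of *Snhg1* had 2209 reads, 818 of them on *Snord22*. With no *Snhg1* row in the files, nothing overlapped them in the count, and reads of the host transcript over these intervals cannot be told apart from reads of snoRNAs. Summed over the 8 genes, the level was 4.16, 4.58, 5.62, 6.43 and 6.45 CPM in Myc KO kidneys and 4.55, 5.66, 7.54, 8.24 and 9.03 CPM in Myc controls. In Cxcl12 KO kidneys it was 4.71, 5.85, 7.31, 7.61 and 8.61 CPM, and in Cxcl12 controls 5.75, 5.81 and 5.85 CPM. These sums are given without a test, on 58 to 223 reads per kidney, and the groups overlapped in both cohorts.

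The genes of the proteins that carry snoRNAs were read in the same kidneys. RNA of all 4 genes for core proteins of box H/ACA particles was lower in Myc KO kidneys at an adjusted p under 0.05. The same held for 1.29% of all tested genes. *Dkc1*, the pseudouridine synthase dyskerin, was at 30.01 ± 2.72 CPM in KO and 46.8 ± 3.71 in control kidneys (n = 5 each; log2 fold change -0.64, SE 0.084, adjusted p 0.00792). *Nhp2* was at -0.79 (SE 0.11, adjusted p 0.0111), *Nop10* at -0.50 (SE 0.10, adjusted p 0.0364) and *Gar1* at -0.44 (SE 0.10, adjusted p 0.0493). In each of the 4 genes every KO kidney lay below every control, as in 3.92% of all tested genes. With the replicate number as a block 0 of the 4 passed, and in strand column 4 alone 2 did.

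All 4 box C/D core genes had a fold change below 0 in Myc KO kidneys, against 50.1% of all tested genes. An adjusted p under 0.05 was reached by 1 of the 4. This was *Nop56*, at 39.4 ± 4.43 CPM in KO and 59.3 ± 4.46 in control kidneys (-0.59, SE 0.087, adjusted p 0.0115). *Fbl*, the methyltransferase fibrillarin, was at -0.36 (adjusted p 0.0966), *Nop58* at -0.34 (adjusted p 0.0975) and *Snu13* at -0.31 (adjusted p 0.177). Among 10 assembly factors tested 9 had a fold change below 0, and the median log2 fold change of the 10 was -0.29. An adjusted p under 0.05 was reached by 2, the AAA+ ATPase *Ruvbl2* (-0.52, SE 0.084, adjusted p 0.0139) and the nucleolar chaperone *Nolc1* (-0.38, SE 0.071, adjusted p 0.0251). Of the 10, 0 passed with the replicate block or without Myc KO 2, Myc KO 3 or Myc control 2, and 1 passed without Myc KO 4, Myc KO 5 or Myc control 5.

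Of 24 protein-coding hosts of snoRNAs 21 had a fold change below 0 in Myc KO kidneys, against 50.1% of all tested genes. An adjusted p under 0.05 was reached by 4 of the 24, all lower, against 1.29% of all tested genes that were lower at this level. Those that passed included *Dkc1* and *Nop56*, each a host as well as a core protein, and the ribosomal scaffold *Rack1* (-0.43, SE 0.092, adjusted p 0.0383). With 1 kidney left out the number that passed ran from 1 (without Myc KO 2) to 9 (without Myc control 1), and it was 1 with the replicate block. The median log2 fold change was -0.22 for the protein-coding hosts, as it was for the 8 noncoding hosts above. Among 6 other noncoding hosts tested 0 passed. Of these *Snhg11* had the smallest p, with a fold change of 0.27 (adjusted p 0.163), followed by *Epb41l4aos* at -0.35 (adjusted p 0.237).

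Of 14 factors of nonsense-mediated decay, the pathway that removes host transcripts, 0 passed, with *Smg1* at 0.29 (adjusted p 0.127) and *Upf2* at 0.26 (adjusted p 0.145) having the smallest p. With the unmapped class as a term 1 of the 14 passed, with KO higher, as did 1 without Myc control 1. Of 12 regulators of TOP mRNAs and mTOR signaling 7 had a fold change below 0. An adjusted p under 0.05 was reached by 2 of the 12, both lower, the translation repressor *Eif4ebp1* (-0.39, SE 0.084, adjusted p 0.0401) and the RNA-binding protein *Cnbp* (-0.30, SE 0.068, adjusted p 0.0480). Of the 12, 0 passed with the replicate block or in either strand column, and with 1 kidney left out 2 passed without Myc control 1 or Myc control 3 and 0 without any of the other 8. No gene of any of these lists passed in Cxcl12 KO kidneys or for the difference between the cohorts, where the adjusted p was 0.0579 for both *Dkc1* and *Nhp2*. With 1 of the 10 kidneys of the *Myc* cohort left out, all 4 H/ACA genes passed only without Myc control 3, and 3 passed without Myc KO 1 or Myc control 1 and 2 without any of the other 7. Of the 4 C/D genes 0 passed without Myc KO 2 and 2 without Myc control 4. Within the kidneys with 5% or more unmapped reads 1 of the 4 H/ACA genes and 0 of the C/D, assembly and TOP lists passed, and within the other kidneys 0 of any, with all 8 H/ACA and C/D fold changes below 0 in both classes.

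**Figure D5:**
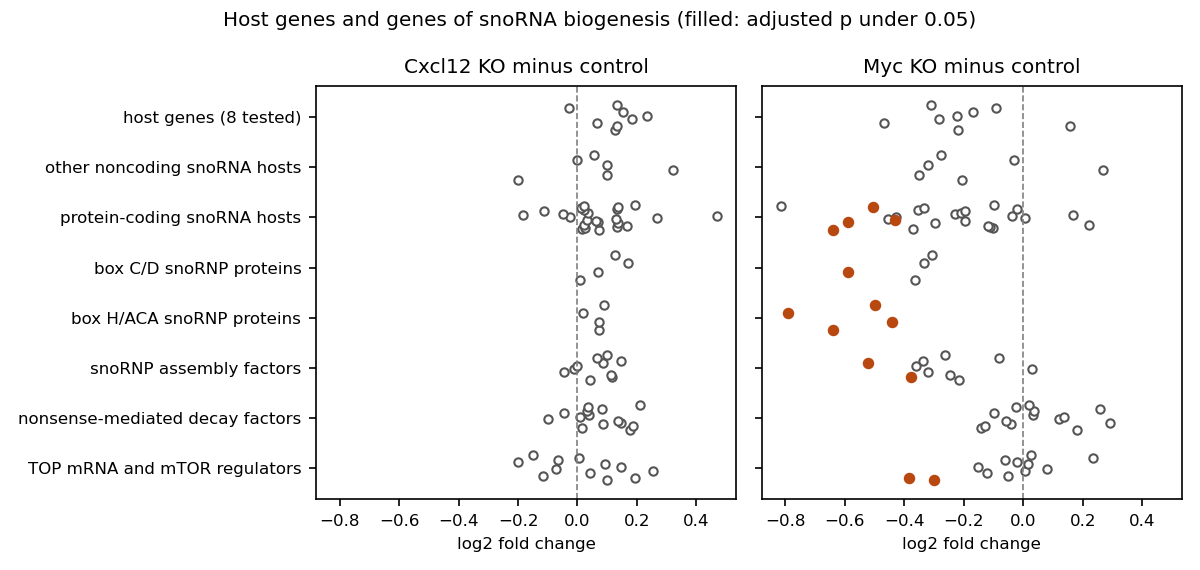
Log2 fold change of each tested gene, by list, for Cxcl12 KO (left) and Myc KO (right) against their controls, filled where the adjusted p was under 0.05. In the *Myc* cohort the 4 box H/ACA genes are all filled and lie between -0.79 and -0.44, while the 8 host genes are all open and lie between -0.47 and 0.16.

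The pattern of the 8 host genes over kidneys was compared with that of 13755 other genes of at least 1 CPM. Likeness was the root mean square (RMS) difference from the mean centred log2 CPM of the 8, over 18 kidneys, where the pattern itself had an RMS of 0.189. The closest were *Mfsd10* (0.108), *E130309D02Rik* (0.110), *Fam220a* (0.120), *Taf11* (0.120) and *Gtf2f1* (0.123). Among the 8 genes, *Gas5* was closest to the mean of the others (0.0945) and *Snhg12* farthest from it (0.305). The kidneys share one depth and scaling factor per library, so likeness over them includes what a library adds to all its genes.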

How the data were processed

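Whole-kidney RNA of 18 mice was sequenced, with replicate numbers that name separate mice. The authors trimmed the reads with Trimmomatic 0.32, aligned them to GRCm38 with STAR 2.4.0 and deposited raw read counts per gene, which are not normalized. For their own results they also calibrated expression values for batch effects with ComBat, without naming the batch. The main tests here had no batch term. The annotation release used for counting was not given in the sources used here. The column that ignores strand was used, and rows that name no gene (29.4% to 32.6% of reads: unmapped, multimapping, without a gene or ambiguous) were left out of library sizes and tests. Names, spans and exons came from GENCODE vM21 and promoters from RefSeq GRCm38.p6.

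In each cohort, genes that passed filterByExpr of edgeR 4.0.16 (R 4.3.3) were tested by its quasi-likelihood method after TMM scaling, with Benjamini-Hochberg adjustment over all genes tested. The difference of KO effects was fitted over 18 kidneys. CPM used TMM factors over all 18 kidneys, and likeness used log2 CPM with a prior count of 2. Alternatives used DESeq2 1.42.0, limma 3.58.1, other scalings, filters and count columns, and each kidney left out. The split by unmapped reads and the sum of strand columns were chosen after seeing the data. The fits were tested on simulated data. Of 33 pairs of kidneys within groups all differed by more than sampling noise (chi-square per degree of freedom 6.31 to 76.1), so none was counted as a duplicate.

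The members and lists were chosen with earlier results of these data known. Named genes were the 10 members, the deleted genes, and from each list those with an adjusted p under 0.05, at most 4, or else the 2 with the smallest p in the *Myc* cohort, overlapping or adjacent genes, and the 5 most alike. One protein-coding host is not reported here by name. The C/D genes that did not pass were named after their values were seen. Python 3.11.15, pandas 2.3.3, numpy 2.4.6 and matplotlib 3.10.9 made tables and plots.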

Additional observations from a re-analysis of the deposited data

Results flagged for a closer look

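In 1 of 27 sets of 5 kidneys examined (9 host genes in 3 groups), a kidney stood apart from the rest of its group. *Snhg17* was at 18.03 CPM in Myc control 4, and the nearest other control was at 27.4 CPM, a gap of 0.818 of the whole range of the group. Chance alone marks about 1 in 20 such sets. Without this kidney the log2 fold change of *Snhg17* in Myc KO kidneys was -0.39 (adjusted p 0.0417), against -0.28 with it.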

How the results depend on the processing

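Over all alternatives, 600 values of single host genes were computed, of which 573 kept their direction and their side of the threshold. The direction turned in 8 with all kidneys of a setting kept. In Cxcl12 KO kidneys these were *Snhg8* at 0.020 and *Snhg15* at -0.064 in strand column 4, and *Snhg6* at -0.0066 with the replicate block, which left out Cxcl12 KO 4 and Cxcl12 KO 5. The others in this cohort were *Snhg8* at 0.099 with the unmapped class as a term and 0.092 in kidneys with 5% or more unmapped reads. In Myc KO kidneys *Snhg8* was at 0.021 in the latter and *Snhg12* at -0.22 in those under 5%, and the difference of effects for *Snhg12* was -0.16 with the class term. With 1 kidney left out it turned in 18 values, all of *Snhg8* (-0.12 to 0.025 in *Cxcl12*, -0.17 to 0.011 in *Myc*, -0.14 to 0.036 for the difference), *Snhg12* (-0.014 to 0.26, -0.0065 to 0.25 and -0.14 to 0.17) and *Snhg15* (-0.021 to 0.16 in *Cxcl12*). The cause was not tested.

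Host genes called stayed at 0 of 8 in every comparison, except for 0 to 1 in the *Myc* cohort when single kidneys were left out (*Snhg17* without Myc control 4). Counts of all genes moved more. Against 0 in the *Cxcl12* cohort, DESeq2 called 355, no filter 214, strand column 3 called 9, the class term 123, the kidneys with 5% or more unmapped reads 80, one fit over 18 kidneys 25, and leaving out a kidney 0 to 15 (the latter without Cxcl12 KO 1). Against 246 in the *Myc* cohort, DESeq2 called 1139, the class term 954, one fit 683, the kidneys with 5% or more unmapped reads 8, those under 5% 0, and leaving out a kidney 21 (without Myc KO 2) to 877 (without Myc control 3). Against 11 for the difference, DESeq2 called 314, limma-voom 3, upper-quartile scaling 6, strand columns 3 and 4 called 4 and 7, the class term 133, the kidneys with 5% or more unmapped reads 44, and leaving out a kidney 1 (without Cxcl12 control 3) to 75 (without Myc KO 5).

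Kidneys with the same replicate number did not deviate together throughout: the correlation of their deviations ran from -0.035 to 0.14 over 3 pairs of the *Cxcl12* and from -0.16 to 0.38 over 5 pairs of the *Myc* cohort, and 2 of 3 and 1 of 5 KO kidneys correlated best with their own number. With the replicate block 18 genes were called in the *Myc* cohort, 0 in the *Cxcl12* cohort and 1 for the difference, with 0 host genes in any and 0 of the 4 H/ACA genes. The block kept only replicate numbers found in both groups of a cohort. Cxcl12 KO 4 and Cxcl12 KO 5 were therefore left out of its fits for the *Cxcl12* cohort and the difference, so blocking and lost kidneys cannot be told apart there. *Snhg15* had 102 to 322 reads per kidney, and *Snhg3* could be read only together with *Gm17300*.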
